A study of Mus musculus with 14 samples.

Results

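Genes that mark the other cells of skeletal muscle were followed in RNA from sorted satellite cells. The 34 genes were taken by symbol from the 49671 Ensembl genes of each count table, and all 34 were found. They comprise 4 genes of the negative sort gate, 9 endothelial, 5 leukocyte, 6 fibro-adipogenic, 6 mural (smooth muscle and pericyte), 1 Schwann cell and 3 tendon genes. Their levels are given library by library as possible carry-over of RNA from those cells, although satellite cells themselves are known to use some such genes, for example Cd34 and Notch3 among the further markers.

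All 14 libraries came from freshly isolated satellite cells of C57BL/6J mice, taken from the resting triceps, pectoral and hind-limb muscles. The sort took cells with integrin B1 and CXCR4 on their surface and without Sca1, Ter119, CD11b, CD31 or CD45, and RNA of 1000 cells entered each library. The reporter dataset held 4 FosGFP+ and 4 FosGFP- libraries, cells sorted by a GFP reporter of the immediate early gene Fos from animals aged 4 months. The deletion dataset held 3 FoscKO and 3 Control libraries from animals aged 6 months. For both arms of the deletion dataset the series text gives a FosGFP+ gate, and the allele and the Cre driver behind FoscKO are not given in the sources used here. The series text counts 4 mice in the reporter dataset and 3 in the deletion dataset, and the labels do not say which mouse a library came from. The p-values below therefore measure the spread between these libraries, which may be technical.

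Satellite cells lie beneath the basal lamina of the muscle fibre, close to capillaries with their endothelial cells and pericytes. Enzymatic digestion of muscle releases all of these cells together with fibro-adipogenic progenitors, resident macrophages, Schwann cells and tenocytes. Antibodies to CD45 (Ptprc), CD31 (Pecam1), CD11b (Itgam) and Sca1 (Ly6a) are used to remove leukocytes, endothelium, myeloid cells and fibro-adipogenic progenitors. No antibody of that gate is directed at mural, Schwann or tendon cells as such.

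Counts in genes ran from 3806776 to 5983711 per FosGFP+ library, from 2652230 to 4067543 per FosGFP- library, from 4797954 to 10241655 per FoscKO library and from 5326686 to 6930696 per Control library. An even background was estimated in each library from 1465 receptor genes of smell, pheromone sensing and taste, as reads per kb of exon. It stood at 0.818 ± 0.122 CPM per exonic kb in FosGFP+ and 1.12 ± 0.129 in FosGFP- (SD, n = 4), a log2 ratio of -0.45. In FoscKO it was 0.616 ± 0.207 and in Control 0.734 ± 0.0277 (SD, n = 3), a log2 ratio of -0.25. CPM here are counts scaled to TMM library sizes. Fos itself was lower in the libraries labelled FosGFP+, at 3098 to 5398 CPM, than in those labelled FosGFP-, at 7908 to 12883 CPM. In the 3 FoscKO libraries Fos stood at 2876 to 8442 CPM, around the 4733 to 5044 CPM of Control, so directions below are between labels.

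Set against that background, most of the 34 genes lay within 5 times of evenly spread reads, while a few genes, among them Gsn, Acta2, Dpt and Tek, were far above it. The count of each gene was divided by the count that its exonic length would draw from the background. The median ratio over the 14 libraries was over 5 for 8 genes, between 1 and 5 for 22 and at or under 1 for 4. Tek, Dcn, Dpt, Gsn and Acta2 exceeded 5 times the background in all 14 libraries. All 12 satellite cell markers examined did so, from Pax7, at 5.73 to 27.2 times, to Sdc4, at 534 to 4252 times. In the reporter dataset 5 of the 34 genes had a mean level per exonic kb above that of every receptor gene, and 6 in the deletion dataset. In bulk RNA, fewer cells of a type and less RNA per cell cannot be told apart.

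**Figure D1:**
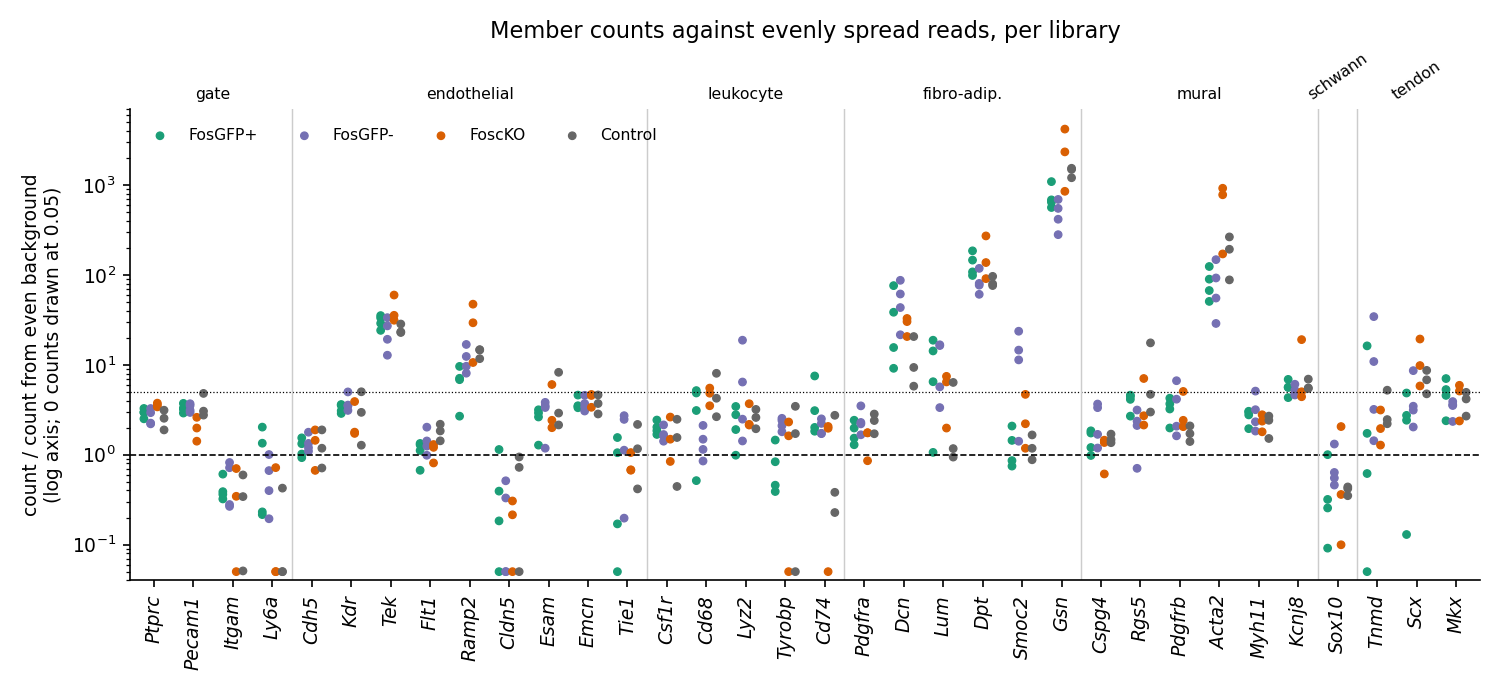
Count of each of the 34 genes divided by the count expected from evenly spread reads (log axis, dashed line at 1, dotted line at 5), with 1 point per library coloured by group. Gsn, Acta2, Dpt, Tek and Dcn lie above 5 in all 14 libraries, and Itgam, Ly6a, Cldn5 and Sox10 have medians at or under 1. Ratios use full exonic lengths, also for Itgam, which shares most of its exonic bases with another gene model.

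The 4 gate genes stayed under 5 times the background in all 14 libraries. Ptprc, the leukocyte tyrosine phosphatase CD45, ran from 1.89 to 3.75 times the background over the 14 libraries. Pecam1, the adhesion molecule CD31 of endothelium, ran from 1.41 to 4.81 times. Itgam, the integrin subunit CD11b of myeloid cells, had 0 to 17 counts. In all 14 libraries this was below the background expected of its full exonic length. Ly6a, which encodes Sca1, had 0 counts in 4 libraries and at most 8 in any. A count of 0 allows up to 3 counts, or 0.361 to 0.896 CPM depending on the library, and this limit covers counting error only. Of the 5024 exonic bases of Itgam, 3450 are shared with another gene model of the same strand, and Ly6a has near-identical relatives, so the counts of both are uncertain. If shared reads were left uncounted, the ratios of both genes are too low, and their place under the background may come from this.

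Within the other classes the genes spread widely around the background. Of the 9 endothelial genes, Cldn5, the claudin of tight junctions, had a median of 0.26 times the background and 0 counts in 5 libraries, and Cdh5, the endothelial cadherin, a median of 1.26 times. Kdr and Emcn, a VEGF receptor and a sialomucin of endothelium, had medians of 3.30 and 3.61 times, while Ramp2 and Tek stood at 11.2 and 28.7 times and were the 2 of the 9 over 5. All 5 leukocyte genes had medians between 1 and 5, down to 1.67 times for Tyrobp, a signalling adaptor of myeloid cells. Of the 6 fibro-adipogenic genes 4 were over 5, whereas Smoc2 had a median of 1.55 times, and Pdgfra, the receptor by which these progenitors are sorted, one of 1.87 times and never more than 3.49. Of the 6 mural genes Acta2 and Kcnj8, a potassium channel subunit of pericytes, were over 5, at 108 and 5.50 times, and Cspg4, the pericyte proteoglycan NG2, was lowest at 1.46 times. The 3 tendon genes lay between 1 and 5, and Sox10, the transcription factor of Schwann cells, had a median of 0.429 times.

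Per exonic kb the genes differed as widely. Gsn, an actin-severing protein counted here among fibro-adipogenic genes, was the most abundant, at 818 CPM per exonic kb on average. Acta2, smooth muscle actin, followed at 142, Dpt, the matrix protein dermatopontin, at 90.4, Dcn, the proteoglycan decorin, at 30.7, and Tek, the angiopoietin receptor TIE2, at 23.3 CPM per exonic kb. Acta2 shares near-identical sequence with other actin genes, so its count is uncertain. Their spread over libraries differed: Tek varied from 75.0 to 152 CPM and Dpt from 100.02 to 242 CPM, whereas Dcn ran from 24.7 to 547 CPM and Lum, the related proteoglycan lumican, from 1.69 to 48.5 CPM. Of 61 further markers of the same types 7 exceeded 5 times the background in all 14 libraries, and 20 had a median at or under 1. The 7 were Cd34, of 12 endothelial markers, Col3a1 (fibrillar collagen), Mmp2 (a matrix protease) and Serpinf1, of 12 fibro-adipogenic markers, and Notch3, Vtn (vitronectin) and Steap4, of 10 mural markers. None of the 15 leukocyte, 7 Schwann cell and 5 tendon markers did so, nor any of 7 erythroid genes. The alpha-globin genes Hba-a1 and Hba-a2 each had 0 counts in 13 of 14 libraries, and the beta-globin genes Hbb-bs and Hbb-bt in 7 and 5. Reads that fit near-identical globin genes alike may go uncounted, so these counts are uncertain.

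**Figure D2:**
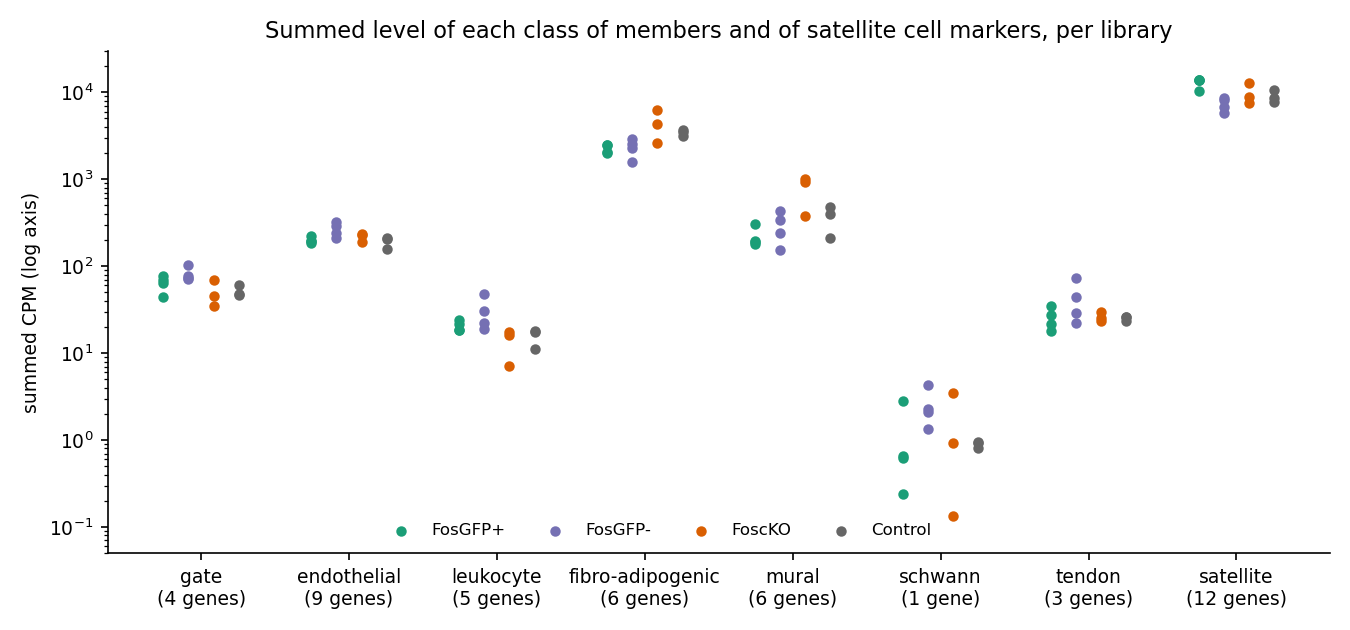
Summed CPM (log axis) of each class of the 34 genes and of 12 satellite cell markers, 1 point per library coloured by group. Fibro-adipogenic genes sum to 1595 to 6193 CPM, most of it Gsn, while leukocyte genes sum to 7.02 to 47.8 CPM.

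The 250 bases before the RefSeq start (GRCm38.p6) were available for 18 of the genes, in 21 windows. They are shown for the 3 genes furthest above the background and for Cd68, a lysosomal glycoprotein of macrophages, the single one of the 18 whose window holds the AP-1 motif bound by Fos and Jun dimers. The motifs searched were TGANTCA (AP-1), CAGCTG (an E-box form; both read the same on either strand) and CAGGAAG on either strand (an ETS form). CAGCTG lay in 5 of the 21 windows, those of Acta2, Cd68 and Dpt and 2 of the 3 of Gsn, and in 13.0% of all 32851 windows of the table. Of Gsn the first window by position is shown. CAGGAAG lay in both windows of Ptprc, in 1 of the 3 of Gsn, in those of Emcn and Lyz2, and in 10.8% of all windows. TGANTCA lay in that of Cd68 and in 6.75% of all windows. In the following windows, written 5′ to 3′, capitals mark CAGCTG and TGANTCA, and in that of Cd68 the first pair overlaps.
Gsn (chr2:35256109-35256358, plus strand): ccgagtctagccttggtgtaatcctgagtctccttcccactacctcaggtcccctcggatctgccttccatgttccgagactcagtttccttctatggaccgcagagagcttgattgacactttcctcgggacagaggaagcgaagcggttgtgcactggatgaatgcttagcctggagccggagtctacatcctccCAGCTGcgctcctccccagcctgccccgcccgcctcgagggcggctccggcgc
Acta2 (chr19:34255374-34255623, minus strand): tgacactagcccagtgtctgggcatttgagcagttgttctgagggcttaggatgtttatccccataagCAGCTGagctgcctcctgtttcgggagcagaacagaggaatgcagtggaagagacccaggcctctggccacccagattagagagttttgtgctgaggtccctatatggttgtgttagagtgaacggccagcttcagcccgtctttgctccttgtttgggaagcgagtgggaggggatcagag
Dpt (chr1:164796413-164796662, plus strand): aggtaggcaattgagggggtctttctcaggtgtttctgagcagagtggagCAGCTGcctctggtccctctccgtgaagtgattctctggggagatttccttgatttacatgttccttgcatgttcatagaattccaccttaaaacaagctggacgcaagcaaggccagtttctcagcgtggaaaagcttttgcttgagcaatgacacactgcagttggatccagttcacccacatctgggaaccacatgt
Cd68 (chr11:69666171-69666420, minus strand): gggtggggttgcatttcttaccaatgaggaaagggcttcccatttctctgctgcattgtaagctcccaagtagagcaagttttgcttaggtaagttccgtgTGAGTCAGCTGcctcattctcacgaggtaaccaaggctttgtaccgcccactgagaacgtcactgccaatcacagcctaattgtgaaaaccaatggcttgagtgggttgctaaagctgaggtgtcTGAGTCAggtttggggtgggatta
A match describes these letters only, and no binding was measured. Cd68 stood at 0.418 to 7.16 CPM, and its test is given with the leukocyte genes.

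The reporter comparison sets cells with GFP driven from Fos against cells without it, here in the genes of other cell types. In the libraries labelled FosGFP+, the endothelial gene Ramp2, the matrix gene Smoc2 and the pericyte gene Cspg4 were lower, and none of the 34 was called higher. The test was edgeR's quasi-likelihood test with Benjamini-Hochberg adjustment over all 20698 genes tested, with a call at an adjusted p under 0.05. It could be run on 29 of the 34 genes. Itgam, Ly6a, Cldn5, Tyrobp and Sox10 were under the filter on low counts. Of all genes tested, 1.85% were called lower and 10.3% higher, against 3 lower and 0 higher of the 29, a balance over all genes that turned with the scaling, as given below. At an unadjusted p under 0.05 the 29 held 7 lower and 0 higher, against 26.4% of all genes in either direction. The log2 fold change was below 0 for 23 and above 0 for 6, with a median of -0.56, against -0.18 over all genes and -0.46 over 650 receptor genes, which were tested in the same way.

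Ramp2, a subunit of the adrenomedullin receptor of endothelium (chr11:101246028-101259546), did not overlap between the groups. Its FosGFP+ libraries held 19.3, 20.5, 8.25 and 19.6 CPM and its FosGFP- libraries 53.0, 48.5, 34.2 and 33.2 CPM. All 4 FosGFP+ libraries lay below all FosGFP- libraries, and FosGFP+ replicate 3 was the lowest. The mean was 16.9 ± 5.79 CPM in FosGFP+ and 42.2 ± 10.0 CPM in FosGFP- (SD, n = 4). On the log2 scale the difference was -1.31 ± 0.29 (SE; edgeR adjusted p = 0.00753). The call was kept in all 17 alternatives run, with adjusted p-values from 0.000754 to 0.0339. Ramp2 shares 1103 of its 3301 exonic bases with its neighbour Vps25 on the same strand.

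Smoc2, a secreted calcium-binding matrix protein (chr17:14279506-14404790), had the largest fold change. It stood at 12.4, 6.48, 4.84 and 5.01 CPM in FosGFP+ and at 9.36, 195, 84.8 and 126 CPM in FosGFP-. FosGFP- replicates 2, 3 and 4 were high, at 23.6, 11.3 and 14.6 times the background. FosGFP- replicate 1, at 1.41 times, lay within the range of FosGFP+, so that the groups overlapped. The log2 fold change was -3.84 ± 0.78 (SE; edgeR adjusted p = 0.0113). The call ended without FosGFP+ replicate 2 (adjusted p = 0.0532), without FosGFP+ replicate 4 (0.0507) and with no filter on low counts (0.0851).

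Cspg4 (chr9:56865033-56899870) stood at 10.0, 14.2, 13.4 and 17.4 CPM in FosGFP+ and at 41.7, 23.8, 42.8 and 17.6 CPM in FosGFP-. FosGFP- replicates 1 and 3 were high, and FosGFP- replicate 4 lay just above the highest FosGFP+ library. The log2 fold change was -1.19 ± 0.32 (SE; edgeR adjusted p = 0.0214). Its counts were 0.98 to 1.84 times the background in FosGFP+ and 1.19 to 3.66 times in FosGFP-. With the background subtracted, the fold change was -2.35 and the call was lost (adjusted p = 0.142). It was also lost in 5 of 8 fits that left out a library, with adjusted p-values from 0.0535 to 0.0858. The part of the background in this difference was not tested further.

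**Figure D3:**
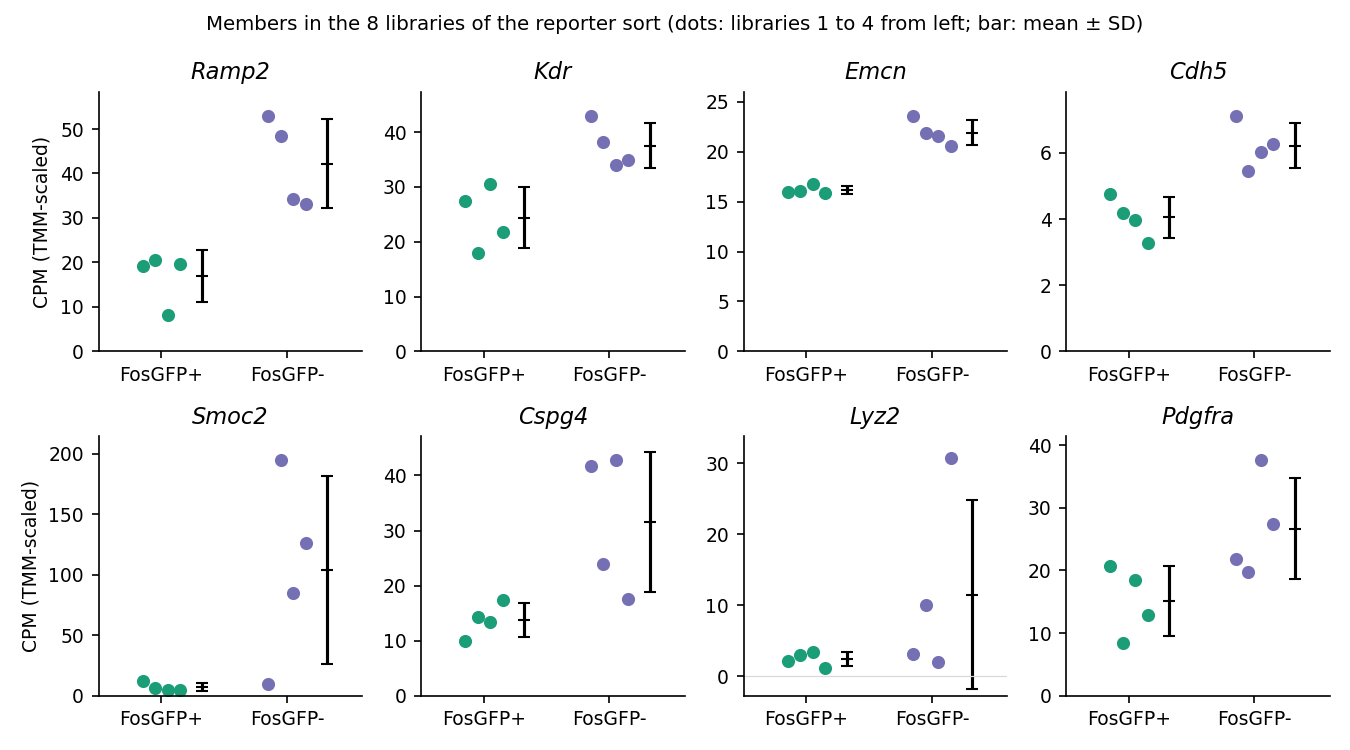
Level (CPM) of 8 genes in each of the 4 FosGFP+ and 4 FosGFP- libraries, with the mean ± SD as a bar. Ramp2, Kdr, Emcn, Cdh5 and Cspg4 do not overlap between the groups, Smoc2 is low in FosGFP- replicate 1, and Lyz2 is high in FosGFP- replicate 4.

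All 8 endothelial genes tested had a log2 fold change below 0, from -0.04 for Tek to -1.64 for Tie1, a receptor related to Tek, although that of Tek turned to 0.0015 with DESeq2 size factors. The median was -0.67, and Ramp2 was the 1 called. Kdr, the VEGF receptor, stood at 27.4, 18.0, 30.4 and 21.8 CPM in FosGFP+ and 43.0, 38.2, 33.9 and 34.9 CPM in FosGFP-. The groups did not overlap, and the log2 fold change of -0.63 ± 0.24 (SE) missed the threshold (edgeR adjusted p = 0.1001). Tek, the most abundant endothelial gene, stood at 134, 107, 106 and 114 CPM against 150, 152, 97.5 and 75.0 CPM. The FosGFP- libraries lay on both sides of FosGFP+, with a log2 fold change of -0.04 ± 0.22 (SE; edgeR adjusted p = 0.926). Flt1, a decoy receptor of VEGF, had -0.75 ± 0.34 (SE; edgeR adjusted p = 0.171). Groups that did not overlap were found for Cdh5, Kdr, Ramp2, Emcn and Cspg4, 5 of the 29 and all lower, against 6.45% of all genes. The summed level of the 9 genes was 182 to 223 CPM in FosGFP+ and 213 to 325 CPM in FosGFP-, so that the groups overlapped. Without Tek, which holds much of that sum, it was 74.8 to 88.6 CPM in FosGFP+ and 136 to 174 CPM in FosGFP-. Tek had the fold change nearest 0 of the 8 tested, so leaving it out favours such a separation. The sum without it holds Ramp2, called above, and genes near the background, which was higher in FosGFP-. It is therefore no separate support for a difference, and no like sum was made over other gene sets. Tek was the 1 of the 9 over 5 times the background in all 14 libraries. Of 12 further endothelial markers 7 were tested and 0 called, with 6 below 0, 1 above and a median of -0.33. All 7 overlapped between the groups. The median over receptor genes was -0.46.

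Leukocyte genes were low throughout and none was called. Lyz2, the lysozyme of macrophages and neutrophils, stood at 2.14, 2.92, 3.41 and 1.09 CPM in FosGFP+ and at 3.12, 10.0, 2.01 and 30.8 CPM in FosGFP-. FosGFP- replicate 4 stood apart, at 18.8 times the background. The log2 fold change of -2.25 ± 0.72 (SE) had an edgeR adjusted p of 0.0516, and without that library it was -1.07 (adjusted p = 0.377). The authors' deposited table lists Lyz2 with an adjusted p of 0.0172 and a log2 fold change of -1.48 once written as FosGFP+ minus FosGFP-. All 3398 genes of the authors' deposited table that were tested here have the opposite sign in the file, so its values are given turned. Fos is among them, at -1.09 once turned and so above 0 in the file. Whether the contrast of the file or the labels of the counts are reversed was not tested, and the directions given here follow the labels. Reads of the near-identical Lyz1 may be shared with Lyz2. Ptprc, at 51.2, 29.7, 50.6 and 45.3 CPM against 51.2, 48.8, 43.4 and 74.4 CPM, overlapped between the groups, with -0.30 ± 0.24 (SE; edgeR adjusted p = 0.432). Cd68 had a fold change of the opposite sign, 0.90 ± 0.67 (SE; edgeR adjusted p = 0.409), and Csf1r, the receptor of macrophage growth factor, -0.20 ± 0.33 (SE).

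Fibro-adipogenic genes other than Smoc2 did not pass. Pdgfra stood at 20.7, 8.35, 18.5 and 12.8 CPM in FosGFP+ and 21.8, 19.8, 37.7 and 27.5 CPM in FosGFP-, overlapping by 1 library on each side. Its log2 fold change was -0.82 ± 0.32 (SE; edgeR adjusted p = 0.114). Dcn overlapped too and spread widely within each group, at 380, 34.5, 209 and 76.2 CPM in FosGFP+ and 341, 300.3, 547 and 157 CPM in FosGFP- (-0.95 ± 0.70, SE; edgeR adjusted p = 0.424). Gsn overlapped between the groups, at 1847, 2226, 1655 and 1706 CPM against 2081.5, 2060.2, 1415 and 1102 CPM (0.16 ± 0.21, SE; edgeR adjusted p = 0.651). Its sign turned with the scaling, to -0.21 on total counts and -0.42 on TMM from well-expressed genes.

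Of the 6 mural genes Cspg4 was the 1 called. Acta2 stood at 233, 127, 104 and 123 CPM in FosGFP+ and 309.6, 144, 219 and 78.9 CPM in FosGFP- (-0.36 ± 0.34, SE; edgeR adjusted p = 0.523). Rgs5, a regulator of G protein signalling in pericytes, stood at 17.9, 12.1, 11.4 and 17.0 CPM against 10.2, 16.9, 3.45 and 11.9 CPM (0.46 ± 0.40, SE; edgeR adjusted p = 0.487). Its log2 fold change was -0.15 when TMM used well-expressed genes alone. Both overlapped between the groups. Among 61 further markers of the same cell types, 41 were tested, and Steap4, a metalloreductase placed among mural genes, was the 1 called. It stood at 138, 417, 299 and 392 CPM in FosGFP+ and 37.6, 132, 129 and 97.7 CPM in FosGFP-, higher by 1.66 ± 0.36 (log2, SE; edgeR adjusted p = 0.00615), the opposite direction to Cspg4. With no filter on low counts it was not called.

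Tendon genes differed widely between the libraries of both reporter groups. The 5 further tendon markers summed to 342, 13.2, 673 and 26.4 CPM in FosGFP+ replicates 1 to 4 and to 1197, 14.9, 496 and 238 CPM in FosGFP-, low in replicate 2 of both groups and in FosGFP+ replicate 4. Tnmd, the tendon membrane protein tenomodulin, stood at 0.715, 0, 20.5 and 1.96 CPM in FosGFP+ and 14.0, 2.30, 50.03 and 5.38 CPM in FosGFP-. FosGFP+ replicate 3 and FosGFP- replicates 1 and 3 were high, and 0 counts were found in FosGFP+ replicate 2. The log2 fold change of -1.68 ± 1.36 (SE) was not called (edgeR adjusted p = 0.463), and without FosGFP+ replicate 3 it was -4.23 (adjusted p = 0.0166). Fmod, fibromodulin of the tendon matrix, stood at 107, 0.627, 434 and 12.8 CPM in FosGFP+ and 751, 0.574, 405 and 170 CPM in FosGFP-. It was highest in the 3 libraries where Tnmd was high and at most 3.37 CPM in the deletion dataset. Thbs4, a thrombospondin of tendon, reached 225 and 191 CPM in FosGFP+ replicates 1 and 3 and 299 CPM in FosGFP- replicate 1. Of Scx and Mkx, transcription factors of the tendon lineage, Scx followed in part, from 0.218 CPM in FosGFP+ replicate 4 to 16.5 CPM in FosGFP- replicate 1. In FosGFP+ replicates 1 to 3 it stood at 8.34, 3.13 and 5.12 CPM. In FosGFP- replicates 2 and 3, however, it stood at 7.47 and 7.48 CPM. Mkx did not follow, at 9.10 to 19.0 CPM over the 8 libraries. Sox10 reached 2.84 CPM in FosGFP+ replicate 3, from 10 counts, and 4.31 CPM in FosGFP- replicate 3, from 15 counts.

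**Figure D4:**
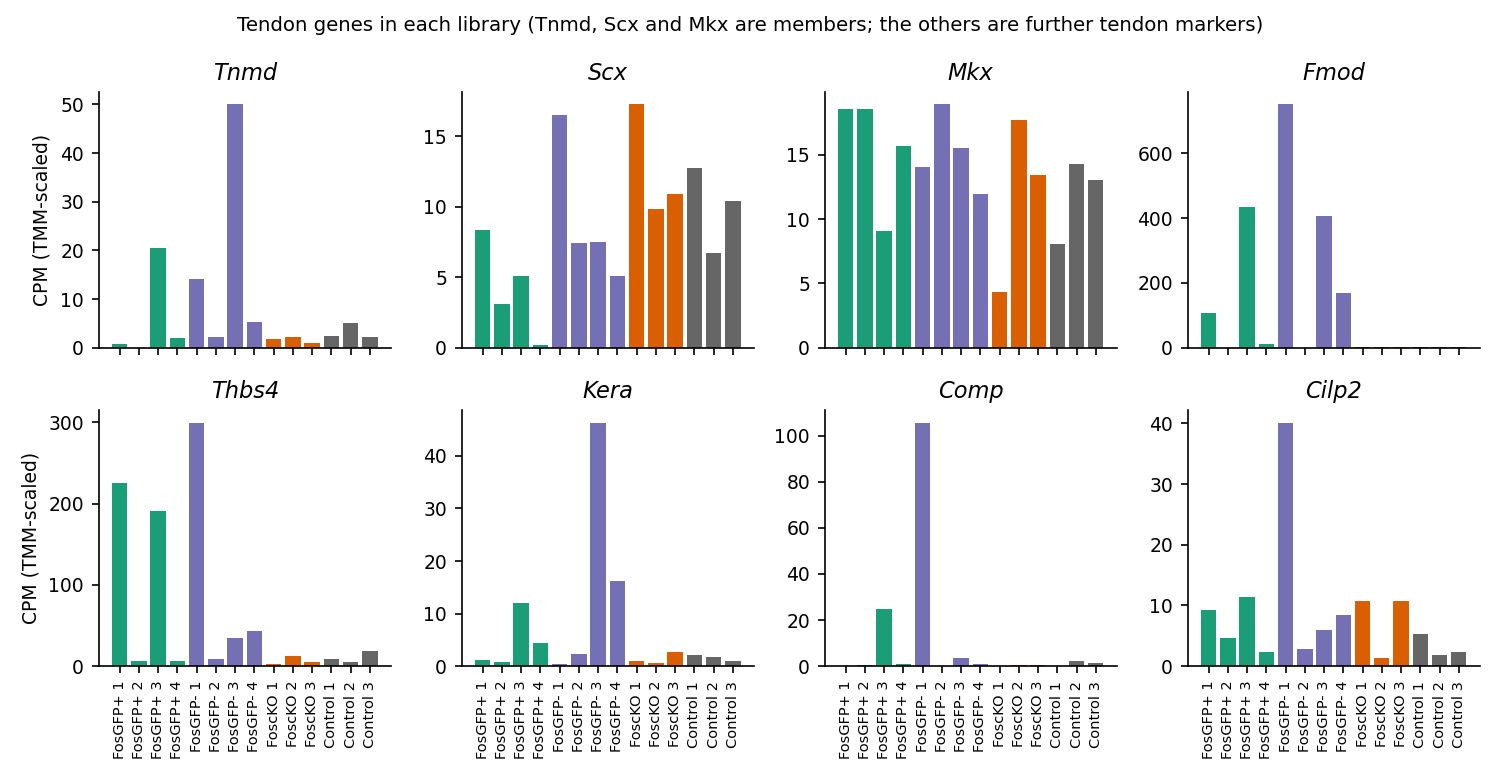
Level (CPM, bars from 0) of 3 tendon genes of the 34 and of 5 further tendon markers in each of the 14 libraries, coloured by group. Fmod, Thbs4, Comp, Kera and Tnmd differ widely between libraries of the reporter dataset, whereas Fmod stays at or under 3.37 CPM in the deletion dataset.

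Over the reporter dataset, each gene's highest library was a FosGFP- library for 28 of the 34, with 9 in replicate 1, 8 each in replicates 2 and 3 and 3 in replicate 4. That count was not made over all genes. The even background was higher in every FosGFP- library, at 0.953 to 1.24 CPM per exonic kb, than in FosGFP+, at 0.646 to 0.931. Of all genes tested with a median ratio to the background at or under 5, 9773 of 12336 had a log2 fold change below 0. The part of the background in the count was not tested. The number of genes called depended on the scaling. Total counts gave 9 of the 29 lower and TMM from genes of at least 50 CPM gave 15, with 0 higher in either. Over all 20698 genes, 2087 were then lower and 1029 higher on total counts, and 5252 lower and 722 higher with TMM from those genes, in place of 383 lower and 2125 higher. These scalings moved the median of all genes from -0.18 to -0.56 and -0.77. The authors' deposited table, which lists genes under an adjusted p of 0.05, holds Smoc2 at -2.28, Lyz2 at -1.48, Ramp2 at -1.10 and Cspg4 at -0.99, and no other of the 34.

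The deletion comparison asks what changes in satellite cells of FoscKO animals. None of the 29 genes tested was called by edgeR's quasi-likelihood test, and 0 of 21885 genes were. The smallest adjusted p among the 29 was 0.705. At an unadjusted p under 0.05 the 29 held 3 higher and 3 lower, against 1208 of all genes, or 5.52%, in either direction. DESeq2 called 91 genes and limma-voom 6, none of them among the 34. The median log2 fold change of the 29 was -0.05, against -0.04 over all genes and -0.28 over 673 receptor genes.

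Acta2 had the largest positive value, at 899, 318 and 951 CPM in FoscKO and 426, 299.9 and 148 CPM in Control. FoscKO replicates 1 and 3 were high and replicate 2 lay within the Control range. The log2 fold change was 1.31 ± 0.43 (SE; edgeR adjusted p = 0.705), and with no filter on low counts its adjusted p was 0.0074. Rgs5, at 4.32, 10.4 and 17.8 CPM against 9.93, 56.4 and 16.3 CPM, had the largest negative one, -1.35 ± 0.61 (SE; edgeR adjusted p = 0.89). Control replicate 2 stood apart, and without it the value was -0.28. Cspg4, at 3.24, 13.8 and 9.62 CPM against 14.8, 12.4 and 12.4 CPM, had -0.58 ± 0.51 (SE; edgeR adjusted p = 0.917).

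Of the gate genes, Pecam1 was lower in every FoscKO library, at 3.92, 10.4 and 9.02 CPM against 21.9, 12.2 and 14.5 CPM in Control. Its log2 fold change was -1.06 ± 0.47 (SE; edgeR adjusted p = 0.89). In the reporter dataset it stood at 15.5, 13.0, 21.6 and 17.2 CPM in FosGFP+ and 20.9, 21.8, 24.7 and 24.2 CPM in FosGFP- (-0.45 ± 0.26, SE; edgeR adjusted p = 0.291). Ptprc had 30.5, 55.7 and 34.6 CPM in FoscKO and 25.3, 32.9 and 43.7 CPM in Control (0.24 ± 0.32, SE; edgeR adjusted p = 0.932). Itgam held 0, 16 and 8 counts in FoscKO and 1, 9 and 14 in Control, and Ly6a 0, 0 and 4 against 2, 0 and 0.

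None of the fibro-adipogenic genes was called in the deletion comparison. Pdgfra was lower in every FoscKO library, at 7.83, 7.27 and 9.74 CPM against 12.5, 17.0 and 21.7 CPM (-1.04 ± 0.41, SE; edgeR adjusted p = 0.822). Dcn stood at 78.6, 162 and 67.0 CPM against 24.7, 38.6 and 91.9 CPM, with 1 Control library inside the FoscKO range (0.98 ± 0.43, SE; edgeR adjusted p = 0.89). Dpt was higher in every FoscKO library, at 208, 133 and 132 CPM against 100.2, 118 and 100.2 CPM (0.57 ± 0.26, SE; edgeR adjusted p = 0.89). Gsn stood at 5886, 2276 and 4103 CPM against 3549.6, 3334 and 2904 CPM, and Smoc2 at 3.65, 27.6 and 8.54 CPM against 5.99, 4.32 and 8.80 CPM, each on both sides of Control. Groups that did not overlap were 1 of 29 on the higher side, Dpt, against 5.75% of all genes, and 3 on the lower side, Pecam1, Pdgfra and Tnmd, against 6.47%.

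Among the remaining named genes, Tek stood at 125, 125 and 93.1 CPM in FoscKO and 80.2, 94.8 and 82.3 CPM in Control (0.41 ± 0.24, SE; edgeR adjusted p = 0.914). Ramp2 had 69.4, 29.6 and 53.9 CPM against 28.3, 34.4 and 36.8 CPM (0.62 ± 0.32, SE; edgeR adjusted p = 0.914), overlapping through FoscKO replicate 2. Kdr stood at 7.16, 29.8 and 8.66 CPM against 8.43, 18.9 and 34.5 CPM, and Lyz2 at 2.16, 2.42 and 1.56 CPM against 1.87, 2.97 and 2.61 CPM. Tnmd stood at 1.89, 2.24 and 0.962 CPM against 2.43, 5.00 and 2.28 CPM, and Sox10 held 1, 5 and 29 counts against 5, 7 and 5. All 8 genes with a median ratio to the background over 5 had a log2 fold change above 0, with a median of 0.50. Of the other 21 tested, 16 were below 0, with a median of -0.29. Over all genes tested, 5719 of 8470 with a ratio over 5 were above 0, with a median of 0.18, and 8731 of 13355 others below 0, with a median of -0.22. In the reporter comparison 6 of the 8 genes were below 0, with a median of -0.33, and 17 of the other 21, with a median of -0.63. There 5637 of all 8310 genes with a ratio over 5 were above 0 (median 0.32), and 9773 of 12336 others below 0 (median -0.42). FoscKO replicate 1, whose background was the lowest of the 14 libraries at 0.445 CPM per exonic kb, was the highest of the 6 libraries for Dpt, Gsn, Kcnj8, Ramp2, Scx and Tek. The part of the background in this split was not tested.

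**Figure D5:**
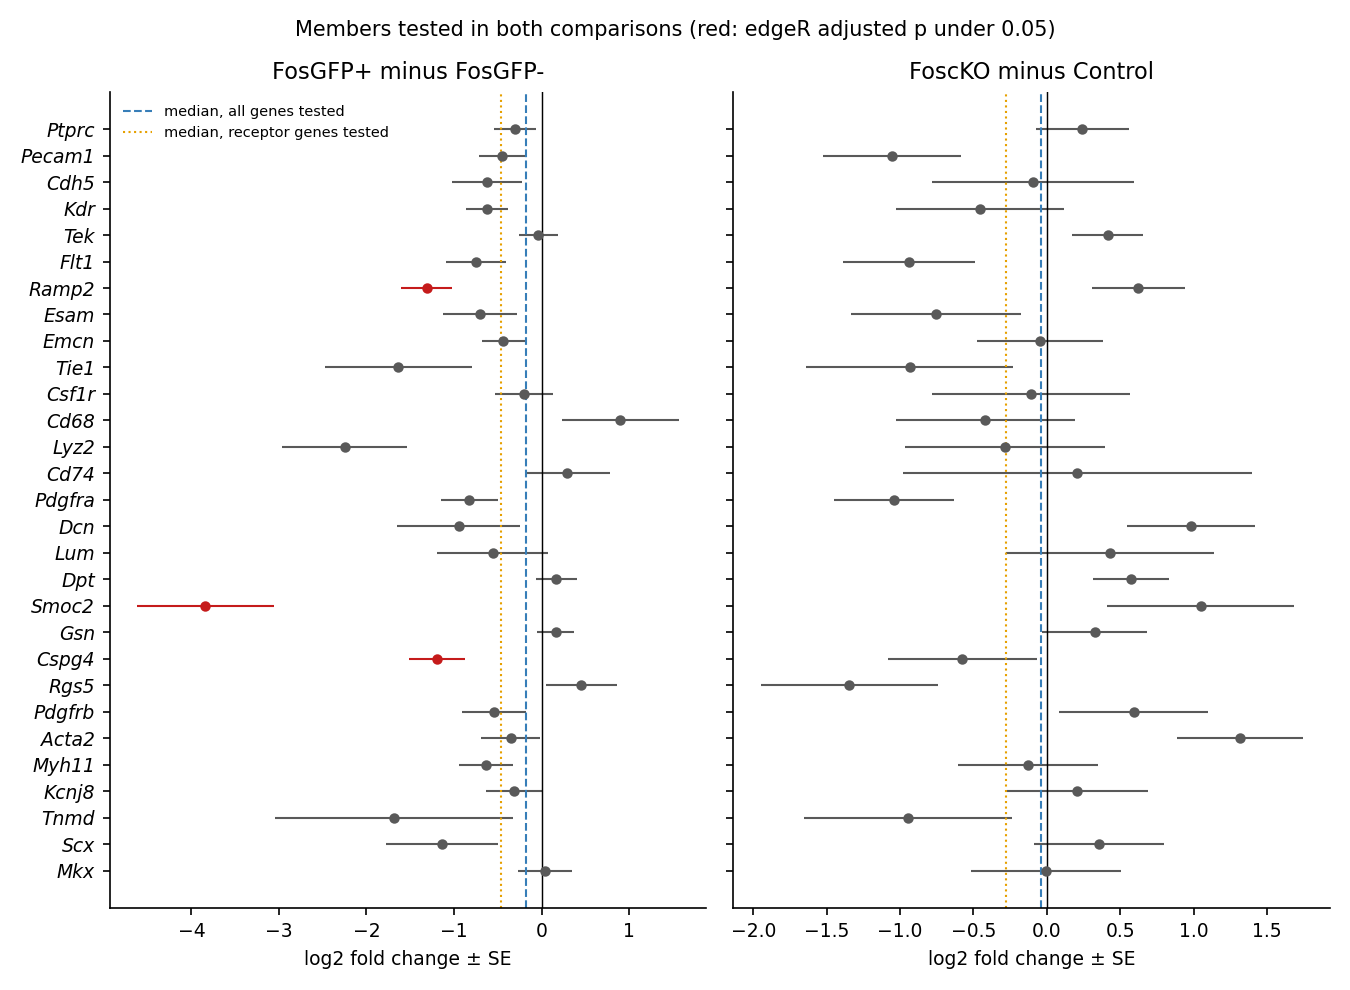
Log2 fold change ± SE of the 29 genes tested, FosGFP+ minus FosGFP- on the left and FoscKO minus Control on the right, with dashed and dotted lines at the medians of all genes and of receptor genes. Ramp2, Smoc2 and Cspg4, in red, pass an edgeR adjusted p of 0.05 on the left, and none does on the right.

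Of 45 further markers tested in the deletion comparison edgeR called 0, while 4 were higher and 1 lower at an unadjusted p under 0.05. Steap4 came nearest, at 393, 333 and 262 CPM in FoscKO and 72.1, 107 and 53.6 CPM in Control, with groups that did not overlap. Its log2 fold change was 2.09 ± 0.30 (SE; edgeR adjusted p = 0.0801). It passed in DESeq2 and limma-voom, and the authors' deposited table lists it at 1.85 with an adjusted p of 3.61e-06. All 10 genes of the mature fibre, another source of carried-over RNA, had a log2 fold change below 0 in this comparison, with a median of -1.23. None was called by edgeR. Of the 10, 7 had an unadjusted p under 0.05, all lower, against 5.52% of all genes in either direction. The groups did not overlap for 3, all lower, against 6.47% of all genes. The authors' deposited table lists Myh4 at -1.09 (adjusted p = 0.0423) and Mylpf at -1.44 (adjusted p = 0.0181), both turned in sign. In the reporter comparison 9 of the 10 fibre genes were above 0 and 1 below, with a median of 0.40 and 0 called by edgeR. For that comparison the authors' deposited table lists Ckm at 0.82, turned in the same way. The summed level of the 10 genes was 1723, 531 and 1379 CPM in FoscKO and 2095, 1498 and 3209 CPM in Control. It was lowest in FoscKO replicate 2 and highest in Control replicate 3, and the groups overlapped. Fibre genes may rise and fall together between libraries, so the 10 are not independent of each other. The part of these genes in the values above was not tested.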

How the data were processed

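For each dataset the authors deposited a table of unnormalized counts for 49671 Ensembl genes. Its 5 lines that name no gene held 69.8% to 89.7% of reads and were left out. Their share was 76.8% to 83.0% in FosGFP+ and 85.9% to 89.7% in FosGFP-, without overlap. It was 69.8% to 84.1% in FoscKO and 81.0% to 83.2% in Control. The part of this difference in the values above was not tested. GRCm38, HTSeq 0.6.1, STAR 2.5.0c, limma and DESeq2 1.20.0 are listed in the submitters' processing notes without their roles. A SMART-Seq v4 kit, whose reads do not keep the strand, was used for amplification per the labels' protocols. The authors also deposited tables of log2 fold changes, p-values and adjusted p-values, which were turned round in sign, since all 3398 and 69 of their genes also tested here had the sign opposite to that of the labelled counts. Whether the contrasts of those tables or the labels of the counts are reversed was not tested. The 14 columns of per-library values in the authors' tables match no label and were not used.

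Positions and exonic lengths came from GENCODE M21. Each table was fitted apart, without covariates, by filterByExpr, TMM and the quasi-likelihood test of edgeR 4.0.16 (two-sided, Benjamini-Hochberg over all genes tested; R 4.3.3). These steps were tested on simulated counts. CPM were computed on TMM-scaled library sizes with SD over libraries. Alternatives were DESeq2 1.42.0, limma-voom (limma 3.58.1), 3 scalings, the even background subtracted, 2 filters, the replicate number as a block and each library left out.

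Fold changes are printed for genes called in either comparison, the gate genes, the most abundant gene per kb of each class and the 5 smallest p-values of each comparison. Dpt, Flt1, Tie1, Cd68 and Csf1r were added after their values were seen. The genes and lists were chosen with earlier results of these data known.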

Additional observations from a re-analysis of the deposited data

Results flagged for a closer look

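In groups of 4 libraries, a highest or lowest library was marked where its gap to the nearest other, divided by the group's range, passed Dixon's 95% limit. Of 68 groups examined 3 were marked, and chance gives about 1 in 20, or 3.4. All 3 lay in FosGFP+ replicate 3. Ramp2 stood there at 8.25 CPM, against 19.3 to 20.5 CPM in the other FosGFP+ libraries. Tnmd stood at 20.5 CPM, against 0 to 1.96 CPM in the others. Sox10 stood at 2.84 CPM, against 0.238 to 0.653 CPM. Without that library the log2 fold change of Ramp2 was -1.04 (edgeR adjusted p = 0.0188) in place of -1.31.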

How the results depend on the processing

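In the reporter comparison the genes called numbered 15 with TMM from genes of at least 50 CPM, 9 with total counts and 1 to 3 with each library left out (1 without FosGFP+ replicate 2), against 3. Other settings gave 2 to 4. Further markers called numbered 7 with TMM from genes of at least 50 CPM, 4 with total counts, 3 with DESeq2, 2 with a mean of at least 5 CPM and 1 to 3 with a library left out, against 1. In the deletion comparison no filter gave 1 gene, Acta2, against 0. Further markers called numbered 1, Steap4, under DESeq2, limma-voom, no filter, the mean of at least 5 CPM, the subtracted background, total counts and TMM from genes of at least 50 CPM, and 0 to 1 with a library left out, against 0.

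Signs turned for fold changes near 0. For Tek in the reporter comparison they were 0.0015 with DESeq2, 0.0015 with its size factors, 0.0087 with limma-voom, 0.045 with no filter and -0.20 to 0.12 with each library left out. Gsn had -0.42 with TMM from genes of at least 50 CPM, -0.21 with total counts and -0.071 with the background subtracted, and Rgs5 -0.15 with the first of these. With each library left out, Acta2 ran from -0.62 to 0.0090, above 0 without FosGFP- replicate 1. In the deletion comparison, with each library left out, Ptprc ran from -0.046 to 0.46, Smoc2 from -0.046 to 1.49 (both below 0 without FoscKO replicate 2), Gsn from -0.030 to 0.63 (below 0 without FoscKO replicate 1) and Kdr from -1.37 to 0.13 (above 0 without Control replicate 3). The causes were not tested.

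With the replicate number as a block, 3 genes were called in the reporter comparison (Ramp2, Smoc2 and Tnmd; Cspg4 at an adjusted p of 0.0611), with Tek at 0.013 and 2 further markers. In the deletion comparison the block gave 0 genes and 1 further marker. Same-numbered libraries correlated at -0.0063 to 0.021 and at -0.027 to 0.15 in their deviations, so that not every pair reached the level set for using the numbers as pairs. The labels do not say whether same-numbered libraries share a mouse, and the block is given as an alternative.

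The low counts of Itgam, Ly6a, Cldn5, Tyrobp and Sox10 limit what can be read from those genes, and set no limit of detection for a cell type. A missed threshold does not show equal levels.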
